A study of Mus musculus with 40 samples.

Results

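Thyroid hormone handling was followed through 7 genes of the 54307 in the table: the deiodinases *Dio2* and *Dio3*, the transporter *Slco1c1*, the receptors *Thra* and *Thrb*, and the hormone-responsive genes *Klf9* and *Hr*. *Dio2* was chosen because its level was higher with PLX5622 in retina, and the other 6 were listed for their role beside it. In bulk tissue, fewer cells of a type and less RNA per cell cannot be told apart.

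Thyroxine, the main hormone in blood, is a precursor that gains most of its activity inside tissues. It enters through carriers such as OATP1C1, the product of *Slco1c1*, which has a high affinity for thyroxine. The deiodinase encoded by *Dio2* removes an iodine from the outer ring and yields the active hormone triiodothyronine, and in brain it is known mainly from glial cells. The deiodinase encoded by *Dio3* removes an inner-ring iodine and inactivates the hormone. In the developing retina, hormone acting through *Thrb*, and its local removal by *Dio3*, are known for their part in cone survival and opsin choice. Triiodothyronine binds the nuclear receptors TRα (*Thra*) and TRβ (*Thrb*), which repress or activate genes such as *Klf9*, a zinc finger transcription factor that is also induced by glucocorticoids, and *Hr*, a corepressor.

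Retina and choroid libraries, 40 in all, carry paired animal numbers and are taken here as those of 20 mice. The tissue was collected 3 days after 6 laser burns per eye, and from choroid the central part with the lesions was used. The 4 groups of 5 mice combined genotype with diet. *Tgfbr2*ΔEC mice carried *Tgfbr2* fl/fl alleles and Cdh5-CreERT2, a tamoxifen-inducible Cre recombinase driven by an endothelial promoter, and controls were *Tgfbr2* fl/fl littermates without Cre. All mice, on a C57BL/6J background and of both sexes, received tamoxifen eye drops for 5 days from 6 to 7 weeks of age and laser treatment, so that no untreated or unlasered eye entered a comparison. The + PLX groups ate food with PLX5622, an inhibitor of the CSF1 receptor that depletes mononuclear phagocytes, from the first tamoxifen dose to the end, and the - PLX groups ate control food. Groups are named below by genotype and diet, as control or *Tgfbr2*ΔEC and then - PLX or + PLX.

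Approximate depth was 20959033 to 30544579 reads per retina and 21447879 to 28553430 per choroid, and 1 read was worth 0.742 to 1.124 and 0.893 to 1.195 normalized counts. *Tgfbr2* itself, deleted by design in endothelial cells, had 164 to 293 normalized counts in the retinas of controls on control food and 107 to 285 in those of their *Tgfbr2*ΔEC counterparts, and overlapped between the genotypes in both tissues (log2 difference -0.20 in retina, adjusted p = 0.928, and -0.016 in choroid, adjusted p = 0.981). Rod and cone markers were lower in choroid than in retina for 10 of 10 genes, and retinal pigment epithelium (RPE) markers were higher for 6 of 6. With PLX the phagocyte markers were lower for 11 of 11 genes in retina and 10 of 11 in choroid. One retina stood apart: that of mouse 1 (control - PLX) held 5856 normalized counts of *Krt5*, a keratin of surface epithelium, against at most 26.9 in the other retinas. One choroid, that of mouse 4 (control - PLX), held 4561 against at most 354. Results that rest on mouse 1 or mouse 4 are given with and without them.

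The deiodinases are selenoproteins, and their active site is read from an in-frame TGA codon that recruits selenocysteine in place of a stop. The stretch around this codon is shown because it is the feature that the activating and the inactivating enzyme share, with the codon in capitals and read 5′ to 3′ from GRCm39. The *Dio2* stretch is chr12:90696570-90696626 on the minus strand and the *Dio3* stretch is chr12:110246146-110246202 on the plus strand, and 36 of the 57 bases were identical.
Dio2: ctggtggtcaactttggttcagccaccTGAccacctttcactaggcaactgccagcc
Dio3: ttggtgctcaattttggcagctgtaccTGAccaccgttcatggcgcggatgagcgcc

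Both deiodinase genes lie on chromosome 12, *Dio2* at 90691322 to 90705819 on the minus strand and *Dio3* at 110245502 to 110247531 on the plus strand (GRCm39, GENCODE release 39). *Thra* lies on chromosome 11 (98629109 to 98661924, plus), *Slco1c1* on chromosome 6 (141469705 to 141516710, plus) and *Klf9* on chromosome 19 (23118187 to 23148497, plus). *Thrb* (4429815 to 4809435, minus) and *Hr* (70789652 to 70811002, plus) lie on chromosome 14. Exons of *Thra* overlap exons of *Nr1d1*, a circadian repressor on the opposite strand. The libraries were stranded but the strand setting of the counting is not given in the sources used here, so reads of this pair could be mixed. The values are per gene, and receptor isoforms were not separated.

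*Dio2* transcripts were more abundant in the retinas of mice fed PLX, at 1177 ± 421 normalized counts (SD, n = 10) against 663 ± 125 without it. The values were 852, 769.7, 838, 572 and 633 in control - PLX retinas and 694, 519, 646, 493 and 610.2 in *Tgfbr2*ΔEC - PLX retinas. With PLX they were 556, 816, 1047, 1757 and 1695 in control and 1136, 1487, 1562, 904 and 807 in *Tgfbr2*ΔEC retinas. Of the 10 retinas with PLX, 7 were above every retina without it and 3 fell within the range of the others, the lowest being that of mouse 11. The ratio of the means was 1.602 in controls and 1.99 in *Tgfbr2*ΔEC mice, and the log2 difference over both genotypes was 0.76 (SE 0.18, 95% interval 0.39 to 1.14). *Dio2* was selected on this contrast, so these values are a description and no test is given. Without mouse 1 the difference was 0.79 and without mouse 4 it was 0.72, and over the 20 fits that left out each mouse in turn it lay between 0.67 and 0.88. The spread also differed by diet in these values: the 5 control + PLX retinas ran over a range of 556 to 1757, wider than the whole range without PLX.

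*Dio3*, the inactivating deiodinase, was scarce in retina and its values leaned the other way. They were 13.2, 21.7, 6.08, 32.6 and 14.1 normalized counts in control - PLX and 9.55, 7.93, 24.8, 23.5 and 29.3 in *Tgfbr2*ΔEC - PLX retinas. With PLX they were 14, 4.84, 2.88, 9.80 and 6.99 in control and 9.15, 4.44, 7.05, 9.34 and 11.3 in *Tgfbr2*ΔEC retinas. The 6 highest retinas were all without PLX, and the remaining values overlapped. The mean with PLX was 0.437 of that without it, and the log2 difference was -1.03 (SE 0.33, 95% interval -1.71 to -0.35, adjusted p = 0.267), which did not pass the test. Over all alternatives the adjusted p lay between 0.104 and 0.447. A floor of 3 reads is 2.23 to 3.37 normalized counts in these retinas, so that *Dio3* rested on few reads, and counting error alone is large at this depth. The third deiodinase gene, *Dio1*, was at or under the floor in 14 of 20 retinas, with a highest value of 8.13 normalized counts in any retina.

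**Figure D1:**
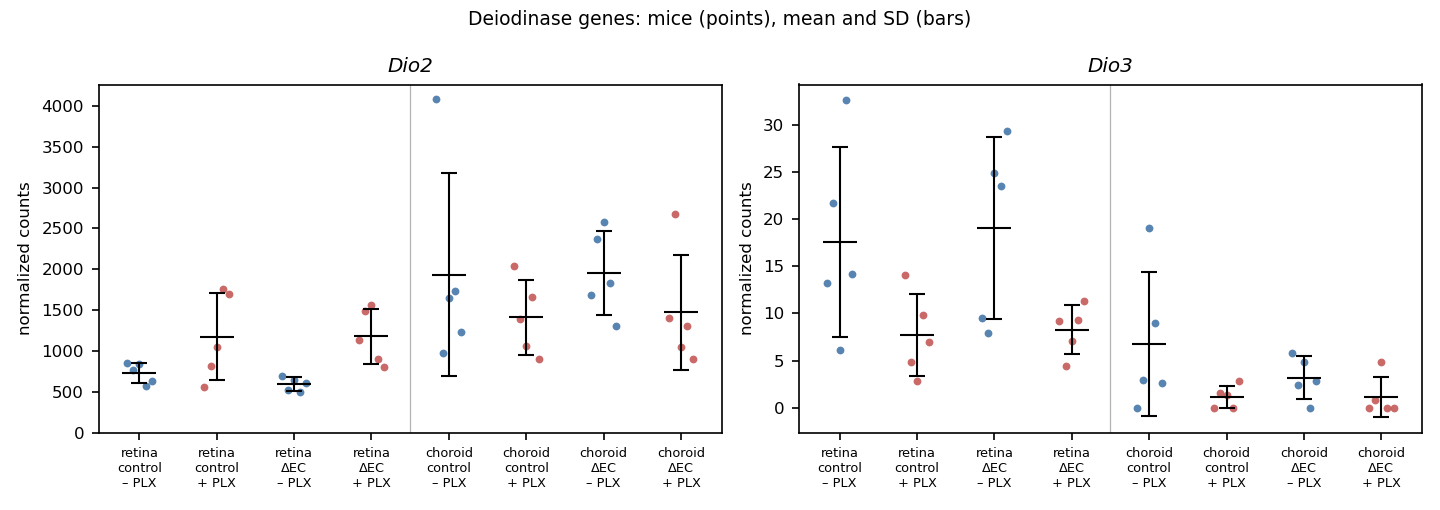
Normalized counts (y axis) of *Dio2* and *Dio3* in each mouse (points, 5 per group) of the 8 groups on the x axis, with the mean and SD as bars; ΔEC stands for *Tgfbr2*ΔEC, blue for - PLX and red for + PLX. In retina 7 of 10 + PLX points of *Dio2* lie above all - PLX points, and in choroid 1 control - PLX point lies apart at 4081.

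Among the other 6 genes none passed the test for diet in retina (limma, adjusted p at or under 0.05), where 254 of 23243 genes (1.09%) were called, 250 lower and 4 higher. At an unadjusted p under 0.05 it was 1 of the 6, *Dio3*, against 6.28% of all genes. The transporter gene *Slco1c1* had a log2 difference of -0.17 (SE 0.12, 95% interval -0.42 to 0.07, adjusted p = 1). The receptor genes had 0.07 (SE 0.07, 95% interval -0.08 to 0.22, adjusted p = 1) for *Thra* and -0.04 (SE 0.20, 95% interval -0.44 to 0.37, adjusted p = 1) for *Thrb*. The responsive genes had 0.11 (SE 0.07, 95% interval -0.03 to 0.26, adjusted p = 0.957) for *Klf9* and 0.05 (SE 0.11, 95% interval -0.17 to 0.28, adjusted p = 1) for *Hr*.

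Retinal *Klf9* varied little between mice. On control food it was 3621 to 4264 normalized counts in controls and 3799 to 4416 in *Tgfbr2*ΔEC mice, and on PLX 3348 to 5130.5 and 3922 to 4713. Of the + PLX retinas 5 were above all - PLX retinas and 1, that of mouse 11, was below them all. Mouse 11 also had the lowest *Dio2* with PLX, at 556, and the lowest *Thrb* of all retinas, at 715. *Slco1c1* was 251 to 344 in control + PLX retinas and 314 to 519 in *Tgfbr2*ΔEC + PLX retinas, and 302 to 485 and 329.6 to 499 without PLX, so that all 4 groups overlapped. *Thra* varied least together with *Klf9*, with a coefficient of variation of 10.47% and 10.12% over the 20 retinas, against 43.6% for *Dio2* and 65.8% for *Dio3*.

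The receptor genes showed no group that stood apart. Retinal *Thra* was 5595, 8135, 5242, 5907 and 6072 in control - PLX and 6011, 7036, 5966, 5532 and 6018 in *Tgfbr2*ΔEC - PLX. With PLX it was 6449.6, 5663, 6146, 6205 and 6615 in control and 6236, 7032, 6171, 6830.2 and 6788 in *Tgfbr2*ΔEC retinas. Every group reached into the ranges of the others, and the highest retina, that of mouse 2, was on control food. Retinal *Thrb*, which marks cones among other cells, ranged more widely, from 1387 to 2521 and 1356 to 3031 in the - PLX groups to 715 to 2569 and 1877 to 2754 in the + PLX groups. *Hr* was 3264, 2549, 2439.7, 3293 and 3069 in control - PLX and 3553, 2859, 4819.6, 2750.1 and 2618 in *Tgfbr2*ΔEC - PLX retinas. With PLX it was 2424, 3071, 3466, 3393 and 3399 in control and 3113, 3200.3, 3998, 2874 and 3073 in *Tgfbr2*ΔEC retinas, so that the groups overlapped, and the highest value, that of mouse 8, was without PLX.

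In the wider lists, which hold 42 genes of hormone metabolism, transport, binding, reception, coregulation, response and turnover of the activating enzyme, none of the 41 genes beside *Dio2* was called for diet in retina (limma), and 2 of them, *Dio3* and *Cbr2*, had an unadjusted p under 0.05. None of the 6 transporter genes was called (0 at an unadjusted p under 0.05). None of the 4 turnover genes, which encode parts of the ubiquitin machinery acting on the enzyme (*Wsb1*, *Marchf6*, *Usp20* and *Usp33*), was called. *Cbr2*, a carbonyl reductase listed as a hormone-responsive gene, had a log2 difference of -2.501 (SE 0.87, 95% interval -4.30 to -0.70, adjusted p = 0.366). Its value was 1713 in the retina of mouse 1 and at most 25.6 in any other, and without mouse 1 the difference was -1.75 (adjusted p = 0.402). The median difference over the 42 genes was 0.046, and over all genes tested 0.0026.

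Markers of other cells were measured beside the *Dio2* difference in retina. None of 10 Müller glia and astrocyte markers was called (limma; 0 at an unadjusted p under 0.05), and their median difference was -0.055. Their summed level was 81656 to 114583 (controls) and 94075 to 103734 (*Tgfbr2*ΔEC) normalized counts on control food, against 95869 to 104173 and 88856 to 111087 on PLX. Of 6 RPE markers 0 passed (limma; 2 at an unadjusted p under 0.05), with a median difference of 0.48 and summed levels of 1831 to 6720 and 4301 to 6093 without PLX and 1608 to 7781 and 6227 to 8171 with it. Summed phagocyte markers went from 2066 to 4646 without PLX to 379.6 to 521 with it, all 11 being lower. Of 7 endothelial and 6 barrier endothelial markers 0 were called (limma; 2 and 1 at an unadjusted p under 0.05), with 6 and 4 of them below 0 and median differences of -0.087 and -0.13. Summed endothelial markers were 4718 to 5749 (controls) and 4136 to 6144 (*Tgfbr2*ΔEC) without PLX and 4275 to 5956 and 3576 to 5181 with it. The part of RPE, phagocyte or endothelial RNA in the *Dio2* difference was not tested.

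Over the 20 retinas the genes whose log2 levels followed *Dio2* most closely, of 14579 protein-coding genes, were *Plk2*, a stress-inducible kinase (Pearson r 0.81), *Etv5*, an ETS transcription factor (0.76), *Chst15* (0.73), *Rnd3* (0.73) and *Fosl2*, a subunit of the AP-1 transcription factor (0.72). Within groups, after each group mean was taken out, r was 0.72 for *Plk2*, 0.70 for *Etv5*, 0.57 for *Chst15*, 0.59 for *Rnd3* and 0.73 for *Fosl2*. Among the 7 genes, *Klf9* followed *Dio2* with r 0.57 (0.55 within groups), *Hr* with 0.35 (0.46), *Thrb* with 0.17 (0.33), *Thra* with 0.17 (-0.017) and *Slco1c1* with -0.16 (0.022), and *Dio3* ran against it with -0.59 (-0.30). For *Slco1c1* the nearest genes were *Fgfr2* (0.77), *Tyms* (0.73), *Otx1* (0.72), *Tyrp1*, a melanin synthesis enzyme of pigmented cells (0.72), and *Zfand6* (0.70). These values describe the 20 retinas, whose libraries, depth and groups they share, and no p is attached to them.

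The 250 bases upstream of the transcription starts of *Dio2* and *Klf9* are shown because *Dio2* is the gene the set was built around and *Klf9* the one of the 7 called for diet in choroid. They are given 5′ to 3′ from GRCm39, *Dio2* at chr12:90705820-90706069 (minus strand) and *Klf9* at chr19:23117937-23118186 (plus strand), with capitals for the only motif found.
Dio2: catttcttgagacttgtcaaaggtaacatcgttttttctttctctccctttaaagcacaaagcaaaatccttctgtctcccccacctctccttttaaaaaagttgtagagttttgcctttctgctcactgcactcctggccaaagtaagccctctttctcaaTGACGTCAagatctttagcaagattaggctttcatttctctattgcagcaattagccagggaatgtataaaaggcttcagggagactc
Klf9: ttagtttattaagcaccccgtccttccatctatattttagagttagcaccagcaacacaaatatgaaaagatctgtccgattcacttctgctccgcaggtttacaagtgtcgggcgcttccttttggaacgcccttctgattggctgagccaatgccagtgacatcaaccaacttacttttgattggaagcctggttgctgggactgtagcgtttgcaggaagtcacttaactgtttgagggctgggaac

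Windows of 300 bases, from 250 before to 50 after the start, were searched on both strands for TGACGTCA, the cAMP response element, for AGGTCA, the hexamer bound by thyroid hormone receptors and other nuclear receptors, and for its direct repeat with 4 bases between. *Dio2* held TGACGTCA at 88 to 81 bases before its start (-88 to -81), as did 2.44% of 21770 promoters. *Slco1c1* held AGGTCA on the minus strand at -18 to -13, as did 15.1% of them. The direct repeat was in 0 of the 21770 windows, and no other of the 7 genes held any of these letters. A match is a description of the sequence and was not tested for binding.

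In choroid the gene that rose with PLX was *Klf9*, to 6156 ± 1040.0 normalized counts (SD, n = 10) from 4043 ± 958. The values were 4122, 4746, 5884, 3867 and 2952 in control - PLX and 2957, 4287, 3790.3, 2960.1 and 4864 in *Tgfbr2*ΔEC - PLX choroids. With PLX they were 6922, 7846, 4836, 6447 and 7126 in control and 5892, 4711, 5925, 5149 and 6704 in *Tgfbr2*ΔEC choroids. Of 10 choroids with PLX 7 were above every choroid without it, and 7 of the 10 without PLX were below every choroid with it. The ratio of the means was 1.52, and the log2 difference was 0.62 (SE 0.12, 95% interval 0.37 to 0.88, adjusted p = 0.00182) by limma. It was 0.64 (SE 0.17, adjusted p = 0.0398) within controls and 0.61 (SE 0.17, adjusted p = 0.0515) within *Tgfbr2*ΔEC mice, and the difference between the genotypes was -0.032 (adjusted p = 0.995). *Klf9* was the 1 of 7 genes called for diet in choroid, where 1684 of 23619 genes (7.13%) were called, 489 (2.07%) higher and 1195 (5.06%) lower. At an unadjusted p under 0.05 it was 3 of 7, with *Slco1c1* and *Dio3*, against 19.3% of all genes. *Klf9* passed in all 28 alternatives, with an adjusted p of 0.000504 to 0.0124, and the difference was 0.62 without mouse 1 (adjusted p = 0.00403) and 0.61 without mouse 4 (adjusted p = 0.00435).

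*Slco1c1* had 2215 ± 538 normalized counts with PLX and 1544 ± 439 without it in choroid, a ratio of 1.43. The values were 2480.3, 1636, 1316, 1035 and 1798 in control - PLX and 1219, 1318, 1494, 1177 and 1966 in *Tgfbr2*ΔEC - PLX choroids. With PLX they were 2830.1, 1693, 2647, 2425 and 1721 in control and 2285, 2260.1, 1251, 2091 and 2943 in *Tgfbr2*ΔEC choroids. Of the choroids, 3 of 10 with PLX were above all without it, and 3 of 10 without it were below all with it. The log2 difference was 0.52 (SE 0.16, 95% interval 0.18 to 0.87, adjusted p = 0.0576), just outside the threshold. The adjusted p fell to 0.0204 without mouse 1, 0.0305 without mouse 10, 0.0356 without mouse 12, 0.0384 without mouse 15 and 0.0137 without mouse 18, and to 0.0486 among genes with a mean of at least 10. Without mouse 4 it was 0.104. With a score of photoreceptor markers as a covariate, the difference was 0.40 (adjusted p = 0.228).

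*Dio2* was not called for diet in choroid, where its values leaned lower with PLX. The values were 4081, 970.4, 1651, 1733 and 1230.2 in control - PLX and 1686, 2369, 2582, 1831 and 1311 in *Tgfbr2*ΔEC - PLX choroids. With PLX they were 2046, 1392, 1059, 1661 and 898 in control and 1408, 2681, 1053, 1309 and 903 in *Tgfbr2*ΔEC choroids. All 4 groups overlapped, and the choroid of mouse 1 stood far above the rest. The log2 difference was -0.40 (SE 0.24, 95% interval -0.89 to 0.09, adjusted p = 0.375), and without mouse 1 it was -0.24 (adjusted p = 0.578). *Dio3* was at or under the floor of 3 reads in 3 of 5 choroids of each - PLX group, and with PLX in 5 of 5 control and 4 of 5 *Tgfbr2*ΔEC choroids, and its highest value was 19.04. Of the 10 choroids without PLX 4 were above every choroid with it, and the log2 difference was -1.26 (SE 0.52, 95% interval -2.34 to -0.18, adjusted p = 0.174), with an unadjusted p of 0.0244. With most values at or under the floor this fitted difference depends on the pseudocount and is no bound. Choroid *Thra* was 2930.4 to 4599 and 3208 to 3985 in control and *Tgfbr2*ΔEC mice on control food and 3022 to 4688 and 3520.1 to 4287 on PLX, and *Thrb* was 369 to 692, 456 to 841, 327 to 1073 and 583 to 769.9 in the same order. All of these ranges overlapped. The receptor genes had log2 differences of 0.12 (SE 0.09, adjusted p = 0.518) for *Thra* and 0.21 (SE 0.17, adjusted p = 0.561) for *Thrb*, and *Hr* had 0.05 (SE 0.17, adjusted p = 0.907).

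**Figure D2:**
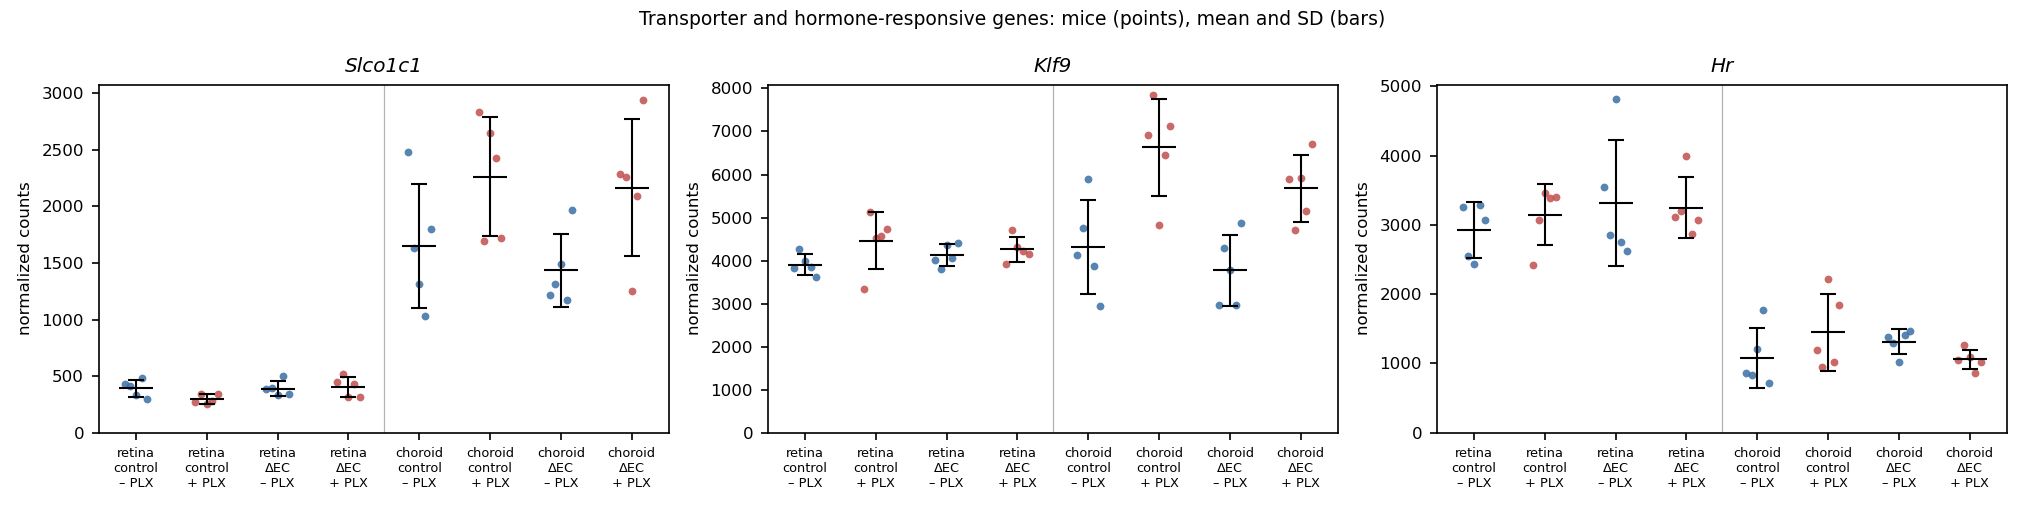
Normalized counts (y axis) of *Slco1c1*, *Klf9* and *Hr* in each mouse (points, 5 per group) of the 8 groups on the x axis, with the mean and SD as bars; ΔEC stands for *Tgfbr2*ΔEC, blue for - PLX and red for + PLX. The *Klf9* points of the + PLX choroids start at 4711, and those of the - PLX choroids end at 5884.

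*Hr*, the other responsive gene, was not called for diet in choroid. Its values were 859.9, 831, 1212, 1779 and 718 in control - PLX and 1199, 952, 2225, 1016 and 1845 in control + PLX choroids. In *Tgfbr2*ΔEC mice they were 1386, 1289, 1015, 1415 and 1469 without and 1047, 1267, 1089.8, 869 and 1019 with PLX. The means with PLX were 1.34 of those without it in controls and 0.805 in *Tgfbr2*ΔEC mice, with overlap in both. The interaction was -0.73 (SE 0.33, unadjusted p = 0.0386, adjusted p = 0.717 by limma) and was not called. The interactions of the photoreceptor markers were below 0 in 10 of 10 genes, with a median of -2.17. Of these markers 6 had an unadjusted p under 0.05 (limma), against 6.57% of all genes, and 0 were called. With their score as a covariate the *Hr* interaction was -0.68, also not called. Beyond that fit their part in it was not tested.

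Of 41 genes of the wider lists tested in choroid, 3 rose and 2 fell with PLX, against the 7.13% called over all genes. Besides *Klf9*, *Slco1a4*, which encodes an organic anion carrier of barrier endothelium, rose, with a log2 difference of 0.47 (SE 0.09, 95% interval 0.28 to 0.67, adjusted p = 0.00206), with 2305 to 2683 and 2036 to 2529 normalized counts without PLX and 2256 to 4148 and 2731 to 3936 with it. *Me1*, malic enzyme, rose with 0.23 (SE 0.06, 95% interval 0.10 to 0.35, adjusted p = 0.0274) and lay between 3290.0 and 5575 normalized counts in all choroids. The call on *Me1* was lost without mouse 3, 4, 9, 18 or 19 and with the photoreceptor score (adjusted p from 0.0507 to 0.063). *Slc16a10*, the gene of the triiodothyronine and aromatic amino acid carrier MCT10, fell: the log2 difference was -0.86 (SE 0.13, 95% interval -1.13 to -0.59, adjusted p = 8.55e-05), from 312 to 384 and 273 to 396 without PLX to 144 to 348 and 166 to 189.9 with it. *Cbr2* fell as well, with a difference of -3.09 (SE 0.31, 95% interval -3.73 to -2.45, adjusted p = 3.09e-07) and 691 to 1125 and 375 to 1069.6 normalized counts without PLX against 38 to 300.4 and 35.4 to 133 with it. *Slco1a4*, *Slc16a10* and *Cbr2* were called in all 28 alternatives. Without mouse 1 and without mouse 4 the differences were 0.48 and 0.46 for *Slco1a4*, -0.88 and -0.84 for *Slc16a10* and -3.12 and -3.06 for *Cbr2*.

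By role, 1 of 6 transporter genes rose and 1 fell, 2 of 13 response genes rose and 1 fell, and 0 of 2 deiodinase, 0 of 5 receptor, 0 of 9 coregulator, 0 of 2 binding protein and 0 of 4 turnover genes were called. At an unadjusted p under 0.05, which 19.3% of all genes reached, the counts were 5 transporter, 6 response, 1 deiodinase (*Dio3*), 0 receptor, 1 coregulator, 0 binding protein and 0 turnover genes. *Slc7a5* had a difference of 0.35 (SE 0.12, adjusted p = 0.0991) and *Dbp* one of 0.35 (SE 0.17, adjusted p = 0.259). The median difference over the 41 genes was 0.083, against 0.00054 over all genes.

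**Figure D3:**
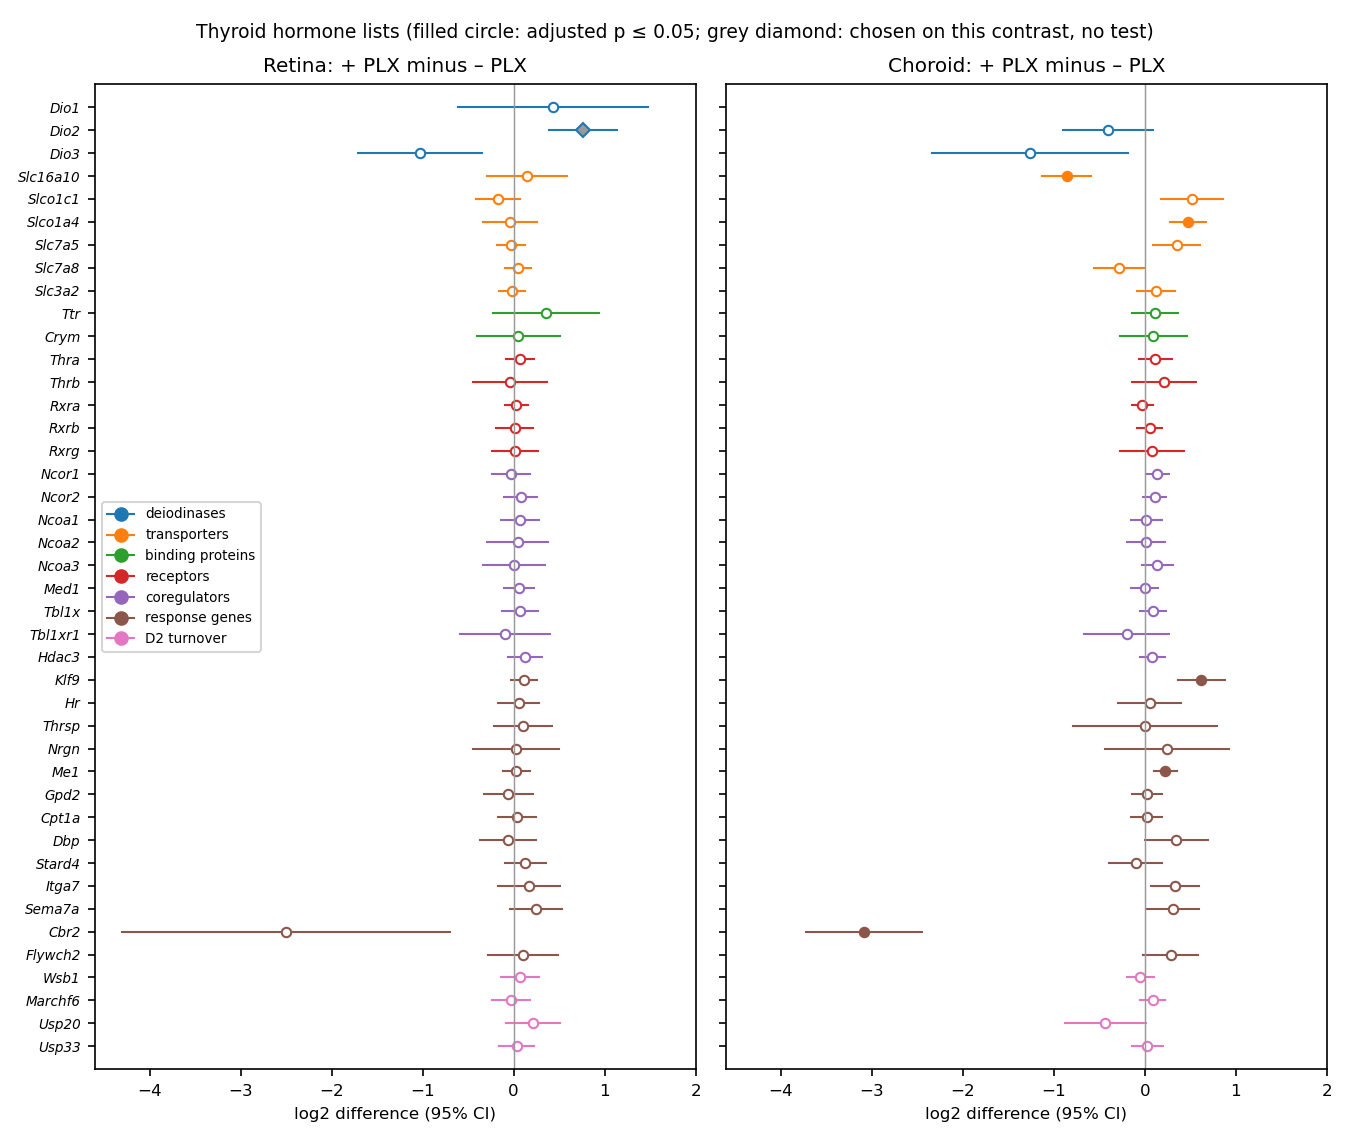
Log2 difference of + PLX minus - PLX (x axis, with 95% intervals) for the genes of the thyroid hormone lists (y axis, coloured by list) in retina and choroid; a filled circle is an adjusted p at or under 0.05 and the grey diamond marks *Dio2* in retina, chosen on this contrast. In choroid 5 circles are filled, from *Cbr2* at -3.09 to *Klf9* at 0.62, and *Dio1* was not tested there.

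Other markers moved with these choroid differences. Of 7 endothelial markers 5 were called higher with PLX (limma), and of 6 genes listed for barrier endothelium 3 were, against 2.07% of all genes. The median differences of the 2 lists were 0.24 and 0.30. Whether other cells of the choroid express these genes was not tested. Summed endothelial markers were 17340.1 to 20137 and 19675 to 22217 normalized counts without PLX and 19871 to 25272 and 21191 to 25824 with it. Summed phagocyte markers were 33177 to 40299 without PLX and 10359 to 14714 with it, 10 of 11 being lower. *Nr1d1*, the gene opposite *Thra*, was higher, with a log2 difference of 0.67 (SE 0.17, adjusted p = 0.0169). *Kcnj10*, 1 of 10 genes of the Müller glia and astrocyte list, was lower, with -0.52 (SE 0.14, adjusted p = 0.025). No other gene of that list was called. The list summed to 136774 to 199063 normalized counts in choroid against 81656 to 114583 in retina, so in choroid it cannot be read as glia alone. None of 6 RPE and 6 skeletal muscle markers was called (limma), with 1 and 0 at an unadjusted p under 0.05. Summed photoreceptor markers spanned 4014 to 138483 in - PLX choroids and 4495 to 134533 in + PLX choroids, 0 of 10 being called (limma; 3 at an unadjusted p under 0.05), with a median difference of -1.10. The genotypes differed in this: in *Tgfbr2*ΔEC choroids the sums were 48630 to 138483 without PLX and 8262 to 22202 with it, with no overlap, and 10 of 10 markers reached an unadjusted p under 0.05 (15.4% of all genes did) with a median of -2.19, 1 of them (*Rom1*) being called lower (4.06% of all genes were called). In control choroids the sums were 4014 to 28320 and 4495 to 134533, the median was 0.14 and 0 of 10 were called (limma; 0 at an unadjusted p under 0.05), against 3.75% and 13.8% of all genes. With their score as a covariate *Klf9* still passed, at 0.56 (adjusted p = 0.0124). The part of endothelial and phagocyte RNA in the *Klf9*, *Slco1a4*, *Slc16a10* and *Cbr2* differences was not tested.

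The difference between the tissues in their diet effect was fitted over all 40 libraries, a comparison added after the values of each tissue were known. The diet difference of *Klf9* in choroid minus that in retina was 0.51 (SE 0.14, 95% interval 0.22 to 0.80, adjusted p = 0.0669), so that a larger difference in choroid was not called. That of *Slco1c1* was 0.70 (SE 0.21, 95% interval 0.28 to 1.12, adjusted p = 0.0972). For *Dio2*, whose retina values chose it, the difference was -1.16 (SE 0.31, 95% interval -1.79 to -0.53), given as a description. Over all genes 332 of 24317 (1.37%) were called in this comparison, and of the wider lists *Slc16a10* was, at -1.004 (SE 0.25, 95% interval -1.51 to -0.50, adjusted p = 0.0252). With the mouse as a replicate block the adjusted p was 0.0584 for *Slc16a10* and 0.0782 for *Klf9*. Single mice and scaling moved these calls: *Klf9* passed with equal totals (0.0469) and without mouse 3 (0.0253), 7 (0.0496), 10 (0.0394), 13 (0.0274) or 17 (0.0438), and *Slco1c1* without mouse 15 (0.0424) or 18 (0.0439). *Slc16a10* did not pass without mouse 3, 4, 5, 9, 10 or 17 (adjusted p from 0.0541 to 0.0669).

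None of the 7 genes was called for genotype in retina (limma; 0 at an unadjusted p under 0.05), where 0% of the 23243 genes passed and 878 (3.78%) reached an unadjusted p under 0.05. *Dio2* itself averaged 733 ± 125 in control - PLX and 592 ± 84.8 in *Tgfbr2*ΔEC - PLX retinas (SD, n = 5), and the values of both groups overlapped. On PLX the averages were 1174 ± 533 and 1179 ± 338. The log2 differences of *Tgfbr2*ΔEC minus control were -0.11 (95% interval -0.48 to 0.27) for *Dio2*, 0.21 (-0.03 to 0.46) for *Slco1c1* and 0.33 (-0.08 to 0.73) for *Thrb*. For *Klf9* the difference was 0.013 (-0.13 to 0.16). With PLX the *Slco1c1* retinas of *Tgfbr2*ΔEC mice were higher by 0.43 than those of controls (unadjusted p = 0.0181, adjusted p = 1 by limma), which did not pass. The genes with the lowest p of the wider lists were *Ttr*, a plasma thyroxine carrier made in the eye by RPE (0.56), *Ncoa2* (0.31) and *Cpt1a* (0.19), each with an adjusted p of 0.928 by limma. Summed RPE markers, *Ttr* among them, were 1831 to 6720 normalized counts in control and 4301 to 6093 in *Tgfbr2*ΔEC retinas without PLX. With PLX they were 1608 to 7781 and 6227 to 8171. The part of RPE RNA in the *Ttr* value was not tested.

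In choroid none of the 7 genes was called for genotype either (limma; 0 at an unadjusted p under 0.05), where 2 of 23619 genes (0.00847%) passed and 1558 (6.6%) reached an unadjusted p under 0.05. The difference was -0.20 (95% interval -0.46 to 0.05) for *Klf9*, 0.09 (-0.40 to 0.58) for *Dio2* and -0.13 (-0.47 to 0.22) for *Slco1c1*. The lowest p of the wider lists were those of *Hdac3* (-0.17), *Me1* (-0.16) and *Usp33* (0.17), each with an adjusted p of 0.752 by limma. Beside these values, summed photoreceptor markers were 48630 to 138483 normalized counts in *Tgfbr2*ΔEC - PLX choroids and 4014 to 28320 in control - PLX choroids. With PLX the sums overlapped, at 8262 to 22202 and 4495 to 134533. Over both diets 9 of 10 of these markers had an unadjusted p under 0.05 for genotype (limma), against 6.6% of all genes, and 0 were called. Their part in the genotype values was not tested beyond the fit with their score, in which no member was called. The interaction of genotype and diet was called for 0 of 23243 genes in retina and 0 of 23619 in choroid (0% in both; 567, 2.44%, and 1552, 6.57%, at an unadjusted p under 0.05), and of the 7 genes *Hr* in choroid alone had an unadjusted p under 0.05. Of the wider lists the lowest interaction p in choroid were those of *Usp33*, with -0.38 (SE 0.16, adjusted p = 0.672), of *Hr*, and of *Ncoa3*, with -0.30 (SE 0.16, adjusted p = 0.833), by limma. In retina they were those of *Nrgn* (0.83), *Slco1c1* (0.43) and *Dio2* (0.39), each with an adjusted p of 1.00 by limma.

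**Figure D4:**
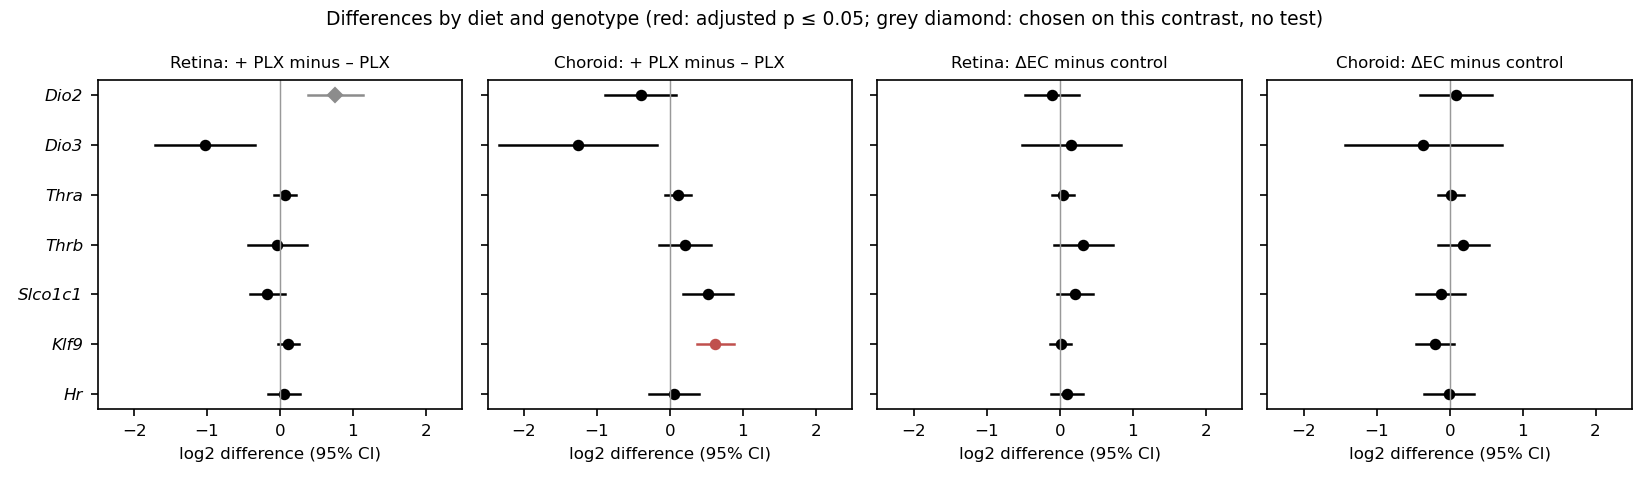
Log2 differences (x axis, with 95% intervals) of the 7 genes (y axis) for diet and for genotype in each tissue, from limma; red marks an adjusted p at or under 0.05 and the grey diamond *Dio2* in retina, chosen on this contrast. The interval of *Klf9* for diet in choroid, 0.37 to 0.88, lies above 0, and no genotype interval was called.

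Levels can be set side by side between genes per length, as normalized counts per kb of exon. In retina *Thra* was highest at 793 ± 83.0 (SD, n = 20), followed by *Klf9* (510.1 ± 51.6), *Hr* (448 ± 79.2), *Thrb* (227 ± 61.2), *Dio2* (143 ± 62.4), *Slco1c1* (50.3 ± 10.6) and *Dio3* (6.47 ± 4.25). The neighbours *Klf9* and *Hr*, and *Thrb* and *Dio2*, overlapped in range, and the first was above the second in 17 of 20 retinas in each pair. By diet, retinal *Dio2* stood at 103 ± 19.5 without PLX and 183 ± 65.5 with it (SD, n = 10). The means of *Thrb* and *Dio2* were closest in control + PLX retinas, at 206 and 183. The other neighbours kept their order in all 20 retinas. Over both diets *Klf9* had the highest mean in choroid at 621 ± 177, followed by *Thra* (471 ± 64.4), *Dio2* (263 ± 120.2), *Slco1c1* (255 ± 79.99), *Hr* (173 ± 53.9), *Thrb* (70.9 ± 19.5) and *Dio3* (1.498 ± 2.20). Each of the first 5 neighbouring pairs overlapped in range there. The order of *Dio2* and *Slco1c1* changed with diet. *Dio2* stood at 303 ± 139 against 209.8 ± 59.6 for *Slco1c1* without PLX (SD, n = 10) and was the higher in 7 of 10 choroids, and with PLX it stood at 224 ± 87.6 against 301 ± 73.1 and was the higher in 1 of 10. *Klf9* stood at 492 ± 117 against 452 ± 61.8 for *Thra* without PLX, with *Klf9* above *Thra* in 5 of 10 choroids and a mean just under that of *Thra* in the *Tgfbr2*ΔEC group (459.0 against 462.2), so that these 2 genes could not be ordered there. With PLX the values were 749 ± 127 and 489.6 ± 64.5, and *Klf9* was above *Thra* in 10 of 10. *Thra* was above *Dio2* in 19 of 20 choroids. *Slco1c1* was above *Hr* in 15 of 20, in 6 of 10 without PLX (209.8 ± 59.6 against 169.5 ± 47.6) and in 9 of 10 with it (301 ± 73.1 against 177 ± 61.9). *Hr*, *Thrb* and *Dio3* kept their order in all 20 choroids.

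Between the tissues, RNA of *Dio2* and *Slco1c1* was more abundant in choroid, and RNA of both receptor genes, *Hr* and *Dio3* in retina. Protein was not measured. *Slco1c1* was 5.07-fold higher in choroid (log2 difference 2.30, SE 0.10) and higher in 20 of 20 mice, and *Dio2* was 1.84-fold higher (0.88, SE 0.16) and higher in 17 of 20. The means of all 4 choroid groups of *Dio2*, from 1411 to 1956, were above those of the 4 retina groups, from 592 to 1179. By diet, the *Dio2* mean in choroid was 2.93 times that in retina without PLX (1944 against 663 normalized counts, higher in 10 of 10 mice) and 1.22 times with it (1441 against 1177, higher in 7 of 10), where the + PLX retina values are those that chose the gene. In the other direction, *Thra* had a log2 difference of -0.76 (SE 0.056) and was lower in choroid in 20 of 20 mice, *Hr* one of -1.41 (SE 0.10; 20 of 20), *Thrb* one of -1.67 (SE 0.14; 19 of 20) and *Dio3* one of -2.16 (SE 0.31; 19 of 20). Most choroid values of *Dio3* were at or under the floor. Its difference lay between -2.57 and -1.17 over the alternatives that kept all mice, so its size is not fixed. The *Dio2* values are a description, since they hold the retinas that chose it. The other 5 passed (adjusted p from 7.85e-22 to 6.98e-08), as did *Klf9* at 0.23 (SE 0.07, 95% interval 0.09 to 0.38, adjusted p = 0.00358). The *Klf9* means were close without PLX (4043 normalized counts in choroid and 4018 in retina, a ratio of 1.01, with choroid higher in 6 of 10 mice) and apart with it (6156 and 4364, a ratio of 1.41, higher in 9 of 10). Over all genes 19930 of 24317 (82%) were called between the tissues, 40.8% higher and 41.1% lower in choroid, so a call by itself says little of these genes. *Klf9* was not called when the libraries were scaled to equal totals (0.11, adjusted p = 0.151).

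**Figure D5:**
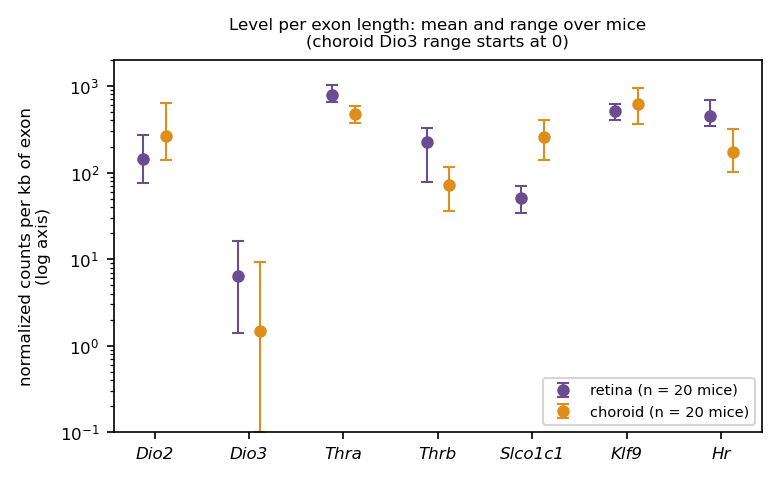
Normalized counts per kb of exon (y axis, log scale) of the 7 genes (x axis) in retina and choroid, as the mean (points) and range (bars) over 20 mice each. *Slco1c1* averages 50.3 in retina and 255 in choroid, and *Dio3* lies lowest in both, at 6.47 and 1.498.

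In the wider lists 37 of 42 genes differed between the tissues (limma), 19 higher and 18 lower in choroid, a count that holds *Dio2*. Over all genes 82% were called, 40.8% higher and 41.1% lower in choroid. The counts of this paragraph by themselves therefore say little of the listed genes. All 6 transporter genes were higher in choroid, among them *Slco1a4* (2.91, adjusted p = 1.47e-27). Of the binding proteins *Ttr* was higher in choroid (5.65, adjusted p = 4.1e-28), and *Crym*, a cytosolic binding protein for triiodothyronine, was lower (-2.20, adjusted p = 1.8e-16). Of the receptors *Rxra*, a partner of the thyroid hormone receptors, was higher in choroid and 3 others were lower. Choroid also had more RNA of 11 of 11 phagocyte, 6 of 6 RPE, 6 of 7 endothelial and 6 of 6 skeletal muscle markers and of 5 of 6 markers of barrier endothelium, the sixth being lower, and the cells behind each tissue difference cannot be told apart in these libraries.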

How the data were processed

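RNA of retina and choroid of 20 laser-treated mice was sequenced as stranded libraries. Per the labels and the paper's methods, the authors checked reads with FastQC 0.11.5, quantified them with Salmon 1.10.1, read them in through tximport and scaled the counts in DESeq2 1.36.0 (versions from the submitters' processing notes), and analysed the tissues separately. The deposited values share 1 scaling over both tissues: over 15800 genes above 0 in every library, the median log2 ratio to the gene's mean was 0.0117 in all 40. The deposited signal per gene is a normalized count that is not a whole number. The 7 genes, the lists and the markers were chosen with earlier results of these data known. All 40 columns were matched to a sample, and all 103 list entries to a gene. A further transporter gene is not reported here.

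The value of 1 read was taken from the spacing of low values. Only 45.7% to 71.7% of these lay within 0.1 of a whole multiple, so no count test could be run and depth is approximate. The floor of 3 reads covers counting error alone.

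Genes with a mean of at least 1 (23243 in retina, 23619 in choroid, 24317 over both) were tested on the scale log2(normalized count + 1), which understates changes of low genes, with trended limma (version 3.58.1, R 4.3.3). Each tissue had its own fit over 4 groups, all 40 libraries had a joint fit, and a Benjamini-Hochberg adjusted p at or under 0.05 was called. The procedure was tested on simulated data. The labels do not give the sex or the neuronal percentage that the authors used as covariates, so these were not used here except as marker scores in alternatives. Named beyond the 7 genes were, for diet, genotype, their interaction and diet between tissues, the listed genes called and the 3 with the lowest p, within 1 genotype or diet only those called, and the 5 protein-coding genes (mean of at least 10) nearest to *Dio2* and to *Slco1c1*. Between the tissues, where 37 were called, a few were named. *Krt5*, *Kcnj10*, *Dbp*, *Slc7a5*, *Dio1*, *Crym*, *Rxra* and *Rom1* were named after their values were seen.

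The library names give a retina and a choroid the same animal number, which is what pairs them here, and the groups within a tissue share no number. The deviations of a retina and of the choroid of the same mouse from their group means correlated over 18160 genes with r from -0.158 to 0.289 (median 0.126), above 0.1 in 12 of 20 mice, and the own choroid was the best match in 12 of 20. Alternatives were pseudocounts of 0.5 and 5, a minimum mean of 10 or none, equal totals, a robust variance, a sex score, a photoreceptor score (choroid), the mouse as a block (both tissues) and leaving out each mouse in turn. Sequences and positions came from GRCm39 and GENCODE release 39, read with Python 3.11.15 (pandas 2.3.3, numpy 2.4.6), and figures were drawn with matplotlib 3.10.9.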

Additional observations from a re-analysis of the deposited data

Results flagged for a closer look

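In 4 of 56 combinations of gene, tissue and group, 1 of the 5 mice lay far from the others by Dixon's ratio, the gap to the nearest other value divided by the range of the group, against a critical value of 0.71. Chance gives about 1 in 20, or 2.8 of 56. *Dio2* in the control - PLX choroid of mouse 1 was 4081 normalized counts, the next value being 1733 (ratio 0.755), and without this mouse the diet difference in choroid was -0.24 in place of -0.40. *Dio2* in the *Tgfbr2*ΔEC + PLX choroid of mouse 17 was 2681, the next value being 1408 (ratio 0.716). *Dio3* in the *Tgfbr2*ΔEC + PLX choroid of mouse 18 was 4.81, the others being at most 0.78 (ratio 0.837), a difference of a few reads. *Thra* in the control - PLX retina of mouse 2 was 8135, the next value being 6072 (ratio 0.713).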

How the results depend on the processing

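*Dio2* for diet in retina, for the diet effect between tissues and between the tissues is a description, since its retina values chose it. Over all alternatives its differences lay between 0.67 and 0.88, between -1.36 and -1.01 and between 0.75 and 0.96. For the other 53 differences of the 7 genes, 1459 alternative values were computed: 1382 kept their direction and their side of the threshold, 1 lost its call (*Klf9* between the tissues), 14 gained one (*Slco1c1* and *Klf9*) and 62 in 17 differences changed sign, none of them called and none above 0.246 in size. Counts that hold *Dio2* on these contrasts are given with nothing read from them. For diet in retina they were 1 of the 7 and 1 of the 42 listed, *Dio2* alone, and 0 with a mean of at least 10, with all genes above 0, with equal totals and with the sex score (0 to 1 when a mouse was left out). For the diet effect between tissues, a comparison added after the data were seen, they were 1 of the 7 (*Dio2*) and 2 of the 42 (with *Slc16a10*), 0 and 1 with all genes above 0 and with the sex score, 0 and 0 with the mouse as a replicate block, and 0 to 2 and 0 to 3 when a mouse was left out. For diet in choroid the counts were 2 of the 7 with a mean of at least 10 and 1 to 2 when a mouse was left out, and the 5 listed genes were 4 to 6. The block changed no call between the tissues themselves: 37 listed genes, a count that holds *Dio2*, and 19855 of all genes were called with it.

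Signs changed as follows. With equal totals *Klf9* by genotype in retina was -0.0061. With the photoreceptor score, *Thra* and *Slco1c1* by genotype in choroid were -0.019 and 0.022, and the *Slco1c1* interaction was -0.19. With the sex score the *Dio3* interaction in retina was -0.013, and with a pseudocount of 5 the *Dio3* diet effect in choroid minus that in retina was 0.20. Leaving out a mouse gave, for diet, -0.13 to 0.12 (*Thrb*, retina) and -0.033 to 0.16 (*Hr*, choroid). For genotype it gave -0.037 to 0.040 (*Klf9*, retina), and in choroid -0.033 to 0.25 (*Dio2*), -0.024 to 0.074 (*Thra*) and -0.078 to 0.088 (*Hr*). For the interaction it gave in retina -0.20 to 0.36 (*Dio3*), -0.0085 to 0.15 (*Thra*), -0.22 to 0.24 (*Thrb*) and -0.20 to 0.036 (*Hr*), and in choroid -0.47 to 0.048 (*Dio2*), -0.25 to 0.84 (*Dio3*), -0.076 to 0.27 (*Slco1c1*) and -0.15 to 0.095 (*Klf9*). For the diet effect between tissues it gave -0.52 to 0.17 (*Dio3*) and -0.12 to 0.079 (*Hr*). None of these was called, and the cause of the sign changes was not tested. *Dio3* could not be tested in choroid with a mean of at least 10, and depth limits all of its values.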

Other observations

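The retina of mouse 1 (control - PLX), in which *Krt5* reached 5856 normalized counts, also held 219 of *Krt12*, a keratin of corneal epithelium, against at most 17.3 in the other retinas. Its values for the 7 genes lay within the range of the other - PLX retinas except for *Dio2*, which was the highest of them at 852. The choroid of the same mouse had the highest *Dio2* of all 40 libraries, 4081, and the highest *Slco1c1* of the 10 - PLX choroids, 2480.3.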
